A study of Mus musculus with 6 samples.

Results

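The genes described here drive and restrain the cell division cycle: cyclins, cyclin-dependent kinases (Cdks) and their inhibitors, the E2F transcription factors with the retinoblastoma pocket proteins, the Cdc25 phosphatases, and the genes that load and fire the replicative helicase. They were taken by symbol from 3 lists of TERT CUT&Tag regions, each region being named for the gene whose start site is nearest. The symbols matched 72 genes of the RefSeq table for GRCm38, of which 71 are protein-coding and 1 (Cdk3) is a transcribed pseudogene. Of the 72 genes, 60 were named by at least 1 region, and together they held 149 of the 41527 regions on chromosomes 1 to 19, X and Y.

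TERT is the catalytic protein subunit of telomerase, and CUT&Tag uses an antibody to bring a transposase to the DNA beside a bound protein. The cells were primary neurons, cultured from cortex and hippocampus of C57BL/6 embryos at E15-18. Vehicle (DMSO) was given to 3 samples, and 2 µM BIBR1532, a small-molecule telomerase inhibitor, to another 3, for 24 h. The treatment field of the labels has the vehicle samples as untreated. All 6 samples share strain, tissue and antibody, and no library made with a control antibody is among them. The labels do not say whether replicates came from separate litters, and the lists hold no RNA values with which the neuronal label could be checked.

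The libraries of each condition were combined before the lists were made, so each condition is 1 pooled measurement. No value below has a replicate error, no test across samples was possible, and the lists do not give the depth of any sample. The common list holds regions shared by both pools (6812 regions). The BIBR1532 list holds regions with more signal in the BIBR1532 pool (16153 regions), and the vehicle list those with more in the vehicle pool (18562 regions). The direction was read from the order of the conditions in the names of the lists and is likely, not stated outright. Regions of the BIBR1532 and vehicle lists are called condition-specific below. Percentages carry exact (Clopper-Pearson) 95% intervals, which cover counting error only, and members that share a locus are not independent.

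In a dividing cell, D cyclins with Cdk4 and Cdk6 phosphorylate the pocket proteins, which frees E2F factors to activate the genes of S phase. Among those genes are the Mcm subunits of the helicase that Cdc6 helps to load on origins and that Cdc45 and the kinase Cdc7 activate. The INK4 and CIP/KIP inhibitors hold the kinases back, and neurons leave the cycle for good while they keep several Cdks, such as Cdk5, in use outside it.

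Of the 149 regions, 36 were common, 56 BIBR1532 and 57 vehicle regions. A common region was named for 28 of the 71 protein-coding members (39.4%, interval 28.0 to 51.7), against 23.9% of all protein-coding genes. A BIBR1532 region was named for 34 (47.9%, 35.9 to 60.1) against 34.5%, and a vehicle region for 33 (46.5%, 34.5 to 58.7) against 37.5%. The 12 genes without a region in any list were Ccnb2, Ccnb3, Ccnc, Ccnd1, Cdc25b, Cdk7, Cdk10, Cdkn1b, Cdkn1c, E2f4, Mcm2 and Mcm8. The share of all protein-coding genes without a region in any list was not counted, so this number is not read as few or many.

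**Figure D1:**
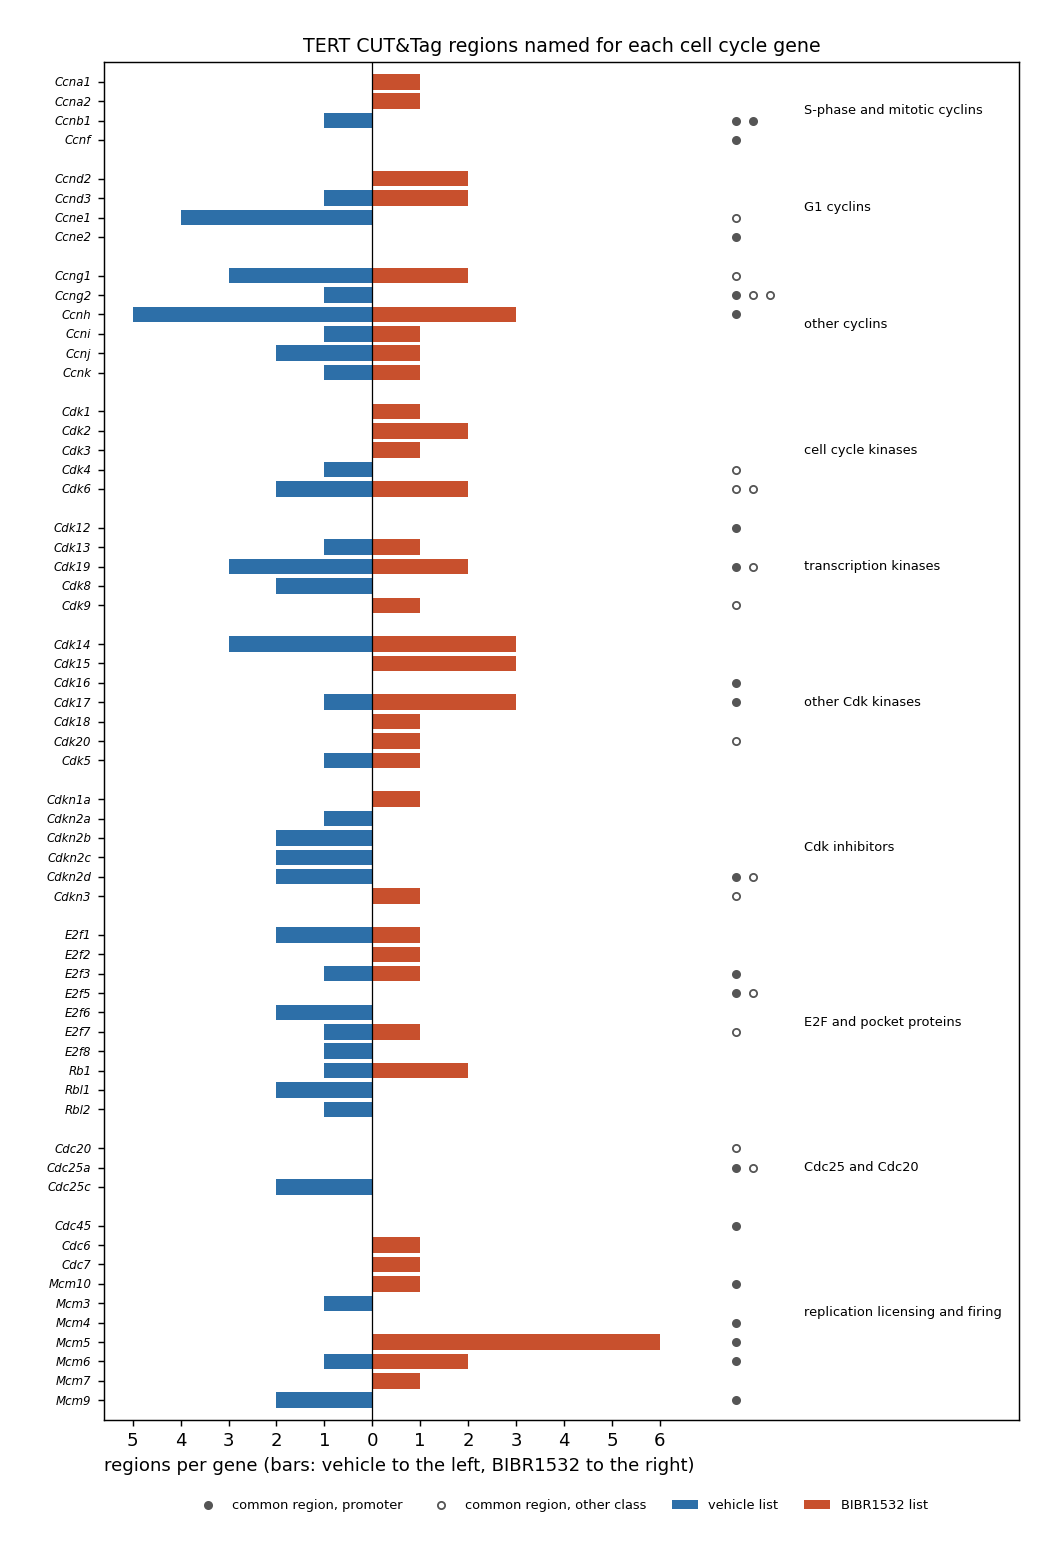
Regions per gene for the 60 members with at least 1 region, grouped by role. Bars count vehicle regions (to the left) and BIBR1532 regions (to the right), and circles count common regions, filled where the region is of the promoter class. Mcm5 reaches 6 BIBR1532 regions with 0 vehicle regions, and the INK4 genes Cdkn2a to Cdkn2d have bars on the vehicle side.

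The promoter sequences of 5 members are shown because E2F factors bind short motifs in the promoters of many of these genes, so a reader can see where such letters lie relative to the TERT regions. They come from RefSeq (GRCm38.p6), run 5′ to 3′ on the gene's strand, and span 200 bases before to 30 bases after the annotated start. Capitals mark exact matches, on either strand, to TTTCCCGC, TTTGGCGC, TTTGCCGC or TTTCGCGC. Where matches on both strands overlap, the capitals run together. The stretches are chr1:128359676-128359905 (Mcm6, minus strand), chr9:109875379-109875608 (Cdc25a, plus strand), chr13:29986034-29986263 (E2f3, minus strand), chr8:75109309-75109538 (Mcm5, plus strand) and chr5:138171854-138172083 (Mcm7, minus strand). Mcm7 was added after its values were seen.
Mcm6: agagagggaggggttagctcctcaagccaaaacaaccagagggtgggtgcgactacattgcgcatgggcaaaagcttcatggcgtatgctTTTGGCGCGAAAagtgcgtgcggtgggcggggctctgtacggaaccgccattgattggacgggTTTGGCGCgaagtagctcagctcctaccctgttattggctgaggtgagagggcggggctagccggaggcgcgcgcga
Cdc25a: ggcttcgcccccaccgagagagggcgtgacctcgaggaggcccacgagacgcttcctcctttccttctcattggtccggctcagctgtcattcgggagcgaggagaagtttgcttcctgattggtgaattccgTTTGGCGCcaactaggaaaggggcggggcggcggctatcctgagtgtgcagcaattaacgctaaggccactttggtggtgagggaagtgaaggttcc
E2f3: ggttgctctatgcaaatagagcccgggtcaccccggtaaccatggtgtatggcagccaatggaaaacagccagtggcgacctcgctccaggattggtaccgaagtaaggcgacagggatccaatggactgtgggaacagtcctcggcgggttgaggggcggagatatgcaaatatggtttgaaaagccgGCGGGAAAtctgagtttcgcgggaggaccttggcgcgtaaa
Mcm5: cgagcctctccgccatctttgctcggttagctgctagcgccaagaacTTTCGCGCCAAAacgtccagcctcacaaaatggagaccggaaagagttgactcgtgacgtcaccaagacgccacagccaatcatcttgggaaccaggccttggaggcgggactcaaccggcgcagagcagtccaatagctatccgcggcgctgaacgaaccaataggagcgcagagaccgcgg
Mcm7: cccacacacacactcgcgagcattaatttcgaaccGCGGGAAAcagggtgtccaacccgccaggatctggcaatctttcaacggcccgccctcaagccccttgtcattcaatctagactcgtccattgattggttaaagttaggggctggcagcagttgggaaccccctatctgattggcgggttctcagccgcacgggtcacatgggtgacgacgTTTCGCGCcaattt

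Promoter windows of 250 bases before to 50 after the start were in the RefSeq table for 57 members (66 windows). Of these windows, 14 (21.2%) held an E2F match, against 2.26% of all 32851 windows and 2.85% of the 21263 windows of protein-coding genes. The shorter CCAAT box, which NF-Y binds, was in 57.6% of member windows and 38.2% of protein-coding ones. TTTGAA, the core of the cell cycle homology region, was in 24.2% and 16.0%. The median GC content was 62.0% in member windows and 56.3% in protein-coding ones. No test was made of these shares, and a match is a description of the letters, not a binding site.

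There were 19 E2F matches in 14 genes, and 7 of them, in 4 genes, lay under a deposited region of any named gene. In Mcm6 all 3 matches lay under the BIBR1532 region upstream of the start, at 110, 106 and 47 bases before it. In Mcm7 the match 165 bases before the start overlapped the edge of a common region that is named for Ap4m1, and the match after the start lay under a BIBR1532 region. The match of Cdc6 lay under its BIBR1532 region, and that of Rbl1 under its vehicle region. The match of Cdc25a fell in the gap between its 2 common regions, and those of E2f3 and Mcm5 lay downstream of their common regions. An E2F match was in 4 of 15 windows of members with a common promoter region and in 10 of 51 windows of the others.

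Common regions of these genes sat at start sites. Of the 36, 20 were annotated promoter-TSS (55.6%, interval 38.1 to 72.1), against 51.9% of the whole common list. Another 7 lay in a 5′ UTR (19.4%, 8.19 to 36.0), against 373 of the 6812 regions of the whole common list. The region centre was within 1 kb of a start site for 32 of 36 (88.9%), against 72.7% of the whole list. Only the common regions of Ccne1 (22424 bp downstream of the start), Cdk6 (107253 bp upstream, and in intron 2 of 7) and the second of Cdk19 (chr10:40372287-40372462, intron 1 of 11) lay farther out.

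A common promoter region was found at 19 of the 71 protein-coding members (26.8%, interval 16.9 to 38.6), against 14.2% of all protein-coding genes. The genes were taken by name, without regard to expression, and no test of this difference was made. A region can also be named for a neighbour: over the RefSeq windows themselves, whatever gene was named, a common region lay at 20 of 57 members (35.1%) and at 18.6% of 17492 protein-coding genes. The 4 windows with a region named for another gene were those of Ccni (named for 2010109A12Rik), Ccnk (Setd3), Cdk9 (Mir3960) and Mcm7 (Ap4m1).

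**Figure D2:**
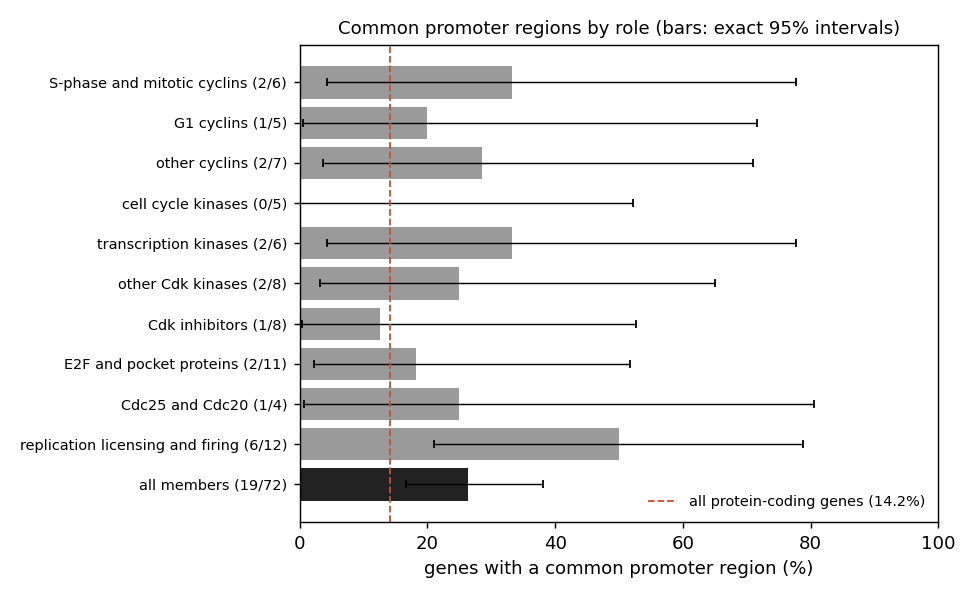
Percent of genes with a common promoter region in each role, with exact 95% intervals, and the number of genes in parentheses. The bar over all members counts the pseudogene Cdk3 too (19 of 72, 26.4%). The dashed line is the 14.2% over all protein-coding genes, and replication licensing and firing genes (6 of 12) have the longest of the 10 role bars, with an interval from 21.1% to 78.9%.

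The replication licensing and firing genes were the role with the most common promoter regions, 6 of 12 (interval 21.1% to 78.9%), beside the 14.2% of all protein-coding genes. The role was singled out from 10 after its values were seen, and no test was made. They were those of Mcm4, Mcm5 and Mcm6, subunits of the helicase core, Mcm9, a relative of the core subunits, Mcm10, a helicase activation factor, and Cdc45, a part of the active helicase. The Mcm10 region (chr2:5012337-5012528) had a score of 0.600, rank 151 of 6812, and that of Mcm5 (chr8:75108751-75109297) a score of 0.0317, rank 5565. The sources used here do not say what a high score means in the common list, so it is not read as strength of binding. Cdc6, Cdc7, Mcm3 and Mcm7 had condition-specific regions only, and Mcm2 and Mcm8 had none.

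Among the cyclins, the common promoter regions belonged to Ccnb1, the mitotic partner of Cdk1, with 2 of them (chr13:100786286-100786498 and chr13:100786701-100786830), to Ccnf, which belongs to a ubiquitin ligase, to Ccne2, which drives entry into S phase, and to Ccng2 and Ccnh. Ccnh is the cyclin of the kinase that activates other Cdks and is a part of the transcription factor TFIIH. The Ccnf region (chr17:24250996-24251815) was 820 bp wide and centred 4 bp from the start. Ccng2, a cyclin linked to arrest, had 3 common regions in a row, in its promoter, 5′ UTR and intron 1 of 7.

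Among the kinases they were those of Cdk12 and Cdk19, which act on transcription, and Cdk16 and Cdk17, of the PCTAIRE group expressed in neurons. The 5 classical cell cycle kinases (Cdk1, Cdk2, Cdk3, Cdk4 and Cdk6) had 0 (interval 0.0 to 52.2), although a common region lay in the 5′ UTR of Cdk4. The remaining ones were Cdkn2d, an INK4 inhibitor, the factor genes E2f3 and E2f5, and Cdc25a, a phosphatase that activates Cdks. The 3 pocket protein genes (Rb1, Rbl1 and Rbl2) had no common region of any class.

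The condition-specific regions of these genes came from both lists in near-equal numbers. The BIBR1532 list held 56 of 113 (49.6%, interval 40.0 to 59.1), against 46.5% of all 34715 condition-specific regions, which lies inside that interval. By gene, 18 members had BIBR1532 regions only, 16 vehicle regions only, 17 both and 21 neither. This split was not made over all protein-coding genes, of which 34.5% had a BIBR1532 region and 37.5% a vehicle region. It is therefore not read as a trait of the members. Promoter regions were 9 of 56 BIBR1532 regions (16.1%, 7.62 to 28.3), against 10.6% of the whole list, and 10 of 57 vehicle regions (17.5%, 8.75 to 29.9), against 9.77%. Counted by protein-coding gene, a BIBR1532 promoter region was named for 8 members (11.3%) and for 6.89% of all protein-coding genes, and a vehicle promoter region for 10 (14.1%) and 7.37%.

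Most of these regions were far from a start site. Of the 113, 45 (39.8%) lay within 10 kb of one, against 33.3% of all condition-specific regions, and 11, named for 4 genes, lay beyond 100 kb. The score that occurs most often in each list, 6.34 in the BIBR1532 and 5.19 in the vehicle list, was held by 49 of the 113 (43.4%), against 48.6% of all condition-specific regions. At these genes it was rare near start sites: 0 of 12 BIBR1532 and 2 of 17 vehicle regions within 1 kb had it, against 23 of 44 and 24 of 40 farther out. The whole lists showed the same contrast, at 13.8% and 12.8% within 1 kb and 53.9% and 57.2% beyond. The 2 vehicle regions were at Cdk17 and Cdkn2b.

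**Figure D3:**
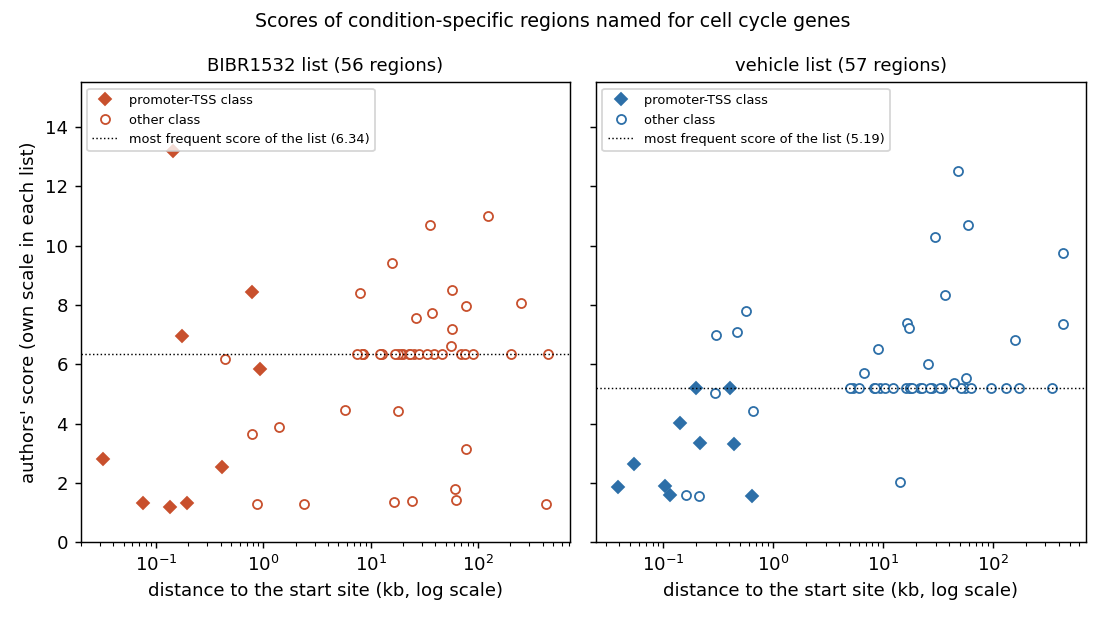
The authors' score of each condition-specific region against its distance to the start site (log scale), for 56 BIBR1532 and 57 vehicle regions. Filled diamonds are regions of the promoter class and the dotted line is the most frequent score of each list. The scores have their own scale in each list, and the highest point at a promoter is Cdk5 in the BIBR1532 list, at 13.2.

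The role with the largest BIBR1532 part was again replication licensing and firing, with 12 BIBR1532 and 4 vehicle regions (75.0%, interval 47.6 to 92.7). That interval does not reach down to the 46.5% of all condition-specific regions, but the role was singled out from 10 after its values were seen, and 6 of the 12 belonged to Mcm5. Without Mcm5 the counts were 6 and 4 (60.0%). In Mcm5, 2 regions lay in intron 7 of 16 (chr8:75116860-75117137, score 6.34, and chr8:75117345-75117657, score 8.39) and 1 in the 3′ UTR (chr8:75127345-75127586). The other 3 lay beyond the gene (chr8:75135743-75136254, chr8:75139941-75146014 and chr8:75146236-75146617), of which the middle one was 6074 bp wide with the most frequent score. The remaining BIBR1532 regions were named for Mcm6 (2), Mcm7, Mcm10, Cdc6 and Cdc7, and the vehicle regions for Mcm9 (2), Mcm3 and Mcm6. Some of these lay in neighbouring transcripts, outside the gene named. The Mcm10 region was 8210 bp upstream, 1 BIBR1532 region of Mcm6 12248 bp upstream, and the Mcm9 regions 43874 and 59531 bp upstream.

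At licensing promoters the BIBR1532 regions had low scores. The Cdc6 region (chr11:98907833-98908038) scored 1.19, rank 16107 of 16153. That of Mcm7 (chr5:138171721-138171896) scored 1.32, and that of Mcm6 (chr1:128359735-128360067) 1.33. These 3 promoters were therefore near the bottom of the BIBR1532 list, whose lowest score was 1.05. No vehicle region of this role was of the promoter class, although vehicle regions lay in exon 1 of 17 of Mcm6 and intron 1 of 16 of Mcm3, within 1 kb of the starts. A vehicle region of high score was named for Mcm9 (chr10:53689363-53689613, 10.7, rank 324 of 18562). It lay outside the gene, 59531 bp upstream, in intron 5 of 17 of a neighbouring transcript.

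The Cdk inhibitors had 2 BIBR1532 and 7 vehicle regions (22.2%, interval 2.81 to 60.0). All 4 INK4 genes, which encode proteins that bind Cdk4 and Cdk6, were named by vehicle regions, 7 in all, and by 0 BIBR1532 regions. Several of the 7 lay outside the gene they are named for. Both Cdkn2c regions were intergenic, 9013 and 12229 bp downstream of the start and beyond the gene end. A Cdkn2d region lay 8429 bp upstream, in an intron of another transcript. Of all protein-coding genes, 37.5% had a vehicle region and 34.5% a BIBR1532 region, and 46.5% of all condition-specific regions were BIBR1532 regions. Both BIBR1532 regions were at other inhibitors, in intron 1 of 2 of Cdkn1a, a CIP/KIP gene, and at the Cdkn3 promoter. Cdkn2a and Cdkn2b lie side by side on chromosome 4, so their 3 regions come from 1 locus. The Cdkn2b region in an intron of a non-coding transcript, 48246 bp upstream (chr4:89358994-89359562), had the highest score of any vehicle region of a member, 12.5, rank 101 of 18562. The promoter region of Cdkn2b (chr4:89311333-89311538) had the most frequent score. Cdkn2a had a region in intron 1 of 2 with a score of 7.80, 568 bp from its upstream start. Another annotated start of Cdkn2a lies farther downstream (promoter window chr4:89282143-89282442), and this region is not at that start. The region is therefore not read as marking the promoter of a protein that binds Cdk4 and Cdk6. With 7 regions this split was singled out after it was seen and has no replicate check.

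E2F and pocket protein genes had 6 BIBR1532 and 11 vehicle regions (35.3%, interval 14.2 to 61.7). Rbl1 and Rbl2, the pocket protein genes related to Rb1, each had a vehicle promoter region and no BIBR1532 region. The Rbl1 region (chr2:157204523-157204753) scored 1.91 and the Rbl2 region (chr8:91069824-91070004) 4.01. Rb1 had 2 BIBR1532 regions in intron 2 of 26 and 1 vehicle region 18431 bp upstream, all 3 at the most frequent scores. E2f1, an activating E2F, had a vehicle region in intron 1 of 6 (score 7.08) 472 bp from its start, a second vehicle region and 1 BIBR1532 region. E2f3, another activator, had a BIBR1532 region of 2569 bp in intron 1 of 6 (score 8.51) and a vehicle region in the same intron (score 5.19). E2f2 had 1 BIBR1532 region, 12343 bp from its start, and no vehicle region. Among the E2Fs that repress, E2f4 had no region and E2f5 had 2 common regions only. E2f6 and E2f8 were named by vehicle regions only, and E2f7 had 1 vehicle region, 1 BIBR1532 region and 1 common region. The E2f6 regions were intergenic, 25679 and 26559 bp downstream of the start and beyond the gene, and the E2f8 region lay 5990 bp upstream.

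The G1 cyclins had 4 BIBR1532 and 5 vehicle regions, and the genes differed. Ccne1, which drives S-phase entry with Cdk2, had 4 vehicle and 0 BIBR1532 regions: 1 in its 3′ UTR (chr7:38098091-38098262), 1 at its promoter (chr7:38107485-38107727, score 1.59) and 2 upstream (chr7:38123688-38123988 and chr7:38136839-38137199), of which the farther scored 10.3. Ccnd2 had 2 BIBR1532 regions, 56564 and 68719 bp upstream, and Ccnd3 had 2 BIBR1532 regions and 1 vehicle region, the latter in a 5′ UTR. Among the S-phase and mitotic cyclins, Ccna1 and Ccna2 had 1 BIBR1532 region each and Ccnb1 had 1 vehicle region.

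The other cyclins had 8 BIBR1532 and 13 vehicle regions (38.1%, interval 18.1 to 61.6), most of them distant. Ccnh led all members with 3 BIBR1532 and 5 vehicle regions, although the gene is 24.4 kb long. Of these 8, 7 were intergenic and 4 lay 345163 bp or more upstream, where Ccnh is only the nearest named start. Its BIBR1532 region at chr13:85066640-85067105, 122513 bp upstream, scored 11.0. The other BIBR1532 regions of Ccnh were chr13:84761441-84761578 and chr13:85126958-85127119. Its vehicle regions were 4 upstream (chr13:84754192-84754387, chr13:84754485-84754615, chr13:84844100-84844344 and chr13:85178949-85179191) and 1 in intron 7 of 8 (chr13:85210700-85211098). Ccng1 had 2 BIBR1532 and 3 vehicle regions, all intergenic and between 16065 and 447347 bp upstream. The BIBR1532 ones were chr11:40783229-40783409 and chr11:41202547-41202720, and the vehicle ones chr11:40771094-40771609, chr11:40912488-40912702 and chr11:40928298-40928535. Whether such distant regions bear on the cyclin they are named for was not tested.

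Cell cycle kinases had 6 BIBR1532 and 3 vehicle regions. Cdk2, the partner of cyclins E and A, had 2 BIBR1532 regions in intron 1 of 6, 873 and 439 bp from its start, with scores of 1.29 and 6.17. Cdk1, the mitotic kinase, had 1 BIBR1532 region near its termination site at the most frequent score. Cdk4 had a vehicle promoter region (chr10:127063384-127063609, score 1.85). Cdk6 was balanced, with 2 regions in each of the 3 lists.

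Among kinases outside the core cycle, the BIBR1532 list held 12 of 17 regions (70.6%, interval 44.0 to 89.7), and the 46.5% of all condition-specific regions lies inside that interval. Cdk5, which acts in neuronal migration and at synapses, had the highest-scoring BIBR1532 region of any member, at its promoter (chr5:24423563-24423851, score 13.2, rank 207 of 16153). A vehicle region in its first intron (chr5:24423059-24423460) began 102 bases away, so this start site carried a region of each direction. Cdk14 had 3 BIBR1532, 3 vehicle and 0 common regions over its 577.0 kb. The BIBR1532 regions were at its promoter (chr5:5380168-5380685, score 6.94), in intron 5 of 14 (chr5:5189689-5189991) and intron 9 of 14 (chr5:5013117-5013302). Its vehicle regions, all at the most frequent score, were in intron 2 of 14 (chr5:5257665-5258023 and chr5:5324590-5324813) and intron 6 of 14 (chr5:5134600-5134771). Cdk15 had 3 BIBR1532 regions and 0 vehicle regions, the highest in intron 8 of 13 (chr1:59292429-59292751, score 10.7). Cdk20 had a BIBR1532 promoter region (chr13:64431548-64431993, score 8.45) and a common region in exon 1 of 8.

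Transcription kinases had 4 BIBR1532 and 6 vehicle regions. Cdk19, a kinase of the Mediator complex, had 2 and 3. Its BIBR1532 regions were in intron 1 of 11 (chr10:40372024-40372148) and intron 4 of 11 (chr10:40439221-40439397), and its vehicle regions at the promoter (chr10:40348526-40348811), in intron 1 (chr10:40349905-40350026) and in intron 4 (chr10:40445482-40445641). Its relative Cdk8 had 2 vehicle regions in intron 1 of 12, both at the most frequent score. Cdk13 had a vehicle promoter region (chr13:17805469-17805607, score 3.32) and a BIBR1532 region 56820 bp upstream. Cdk9, the kinase of P-TEFb, had 1 BIBR1532 region, 8478 bp from its start. Cdc25c, the mitotic phosphatase gene, had 2 vehicle regions, of which 1 was at its promoter (chr18:34751625-34751875, score 3.34). Cdc20, a mitotic ubiquitin ligase activator, had 1 common region, in its 5′ UTR.

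Condition-specific regions at promoters often stood next to a common region, both at these genes and over the whole lists. Of all 113, 13 (11.5%, interval 6.27 to 18.9) lay within 1 kb of a common region, against 7.96% of all condition-specific regions. Among the 19 promoter regions it was 10 (52.6%, 28.9 to 75.6), against 38.3% of all condition-specific promoter regions. Of those 10, 2 BIBR1532 regions and 1 vehicle region were named for Cdk17 alone. A region of the opposite condition lay within 1 kb of 7 of the 113 (6.19%, 2.53 to 12.3), against 4.69% over both lists. Each of these whole-list shares lies inside the interval of the members.

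**Figure D4:**
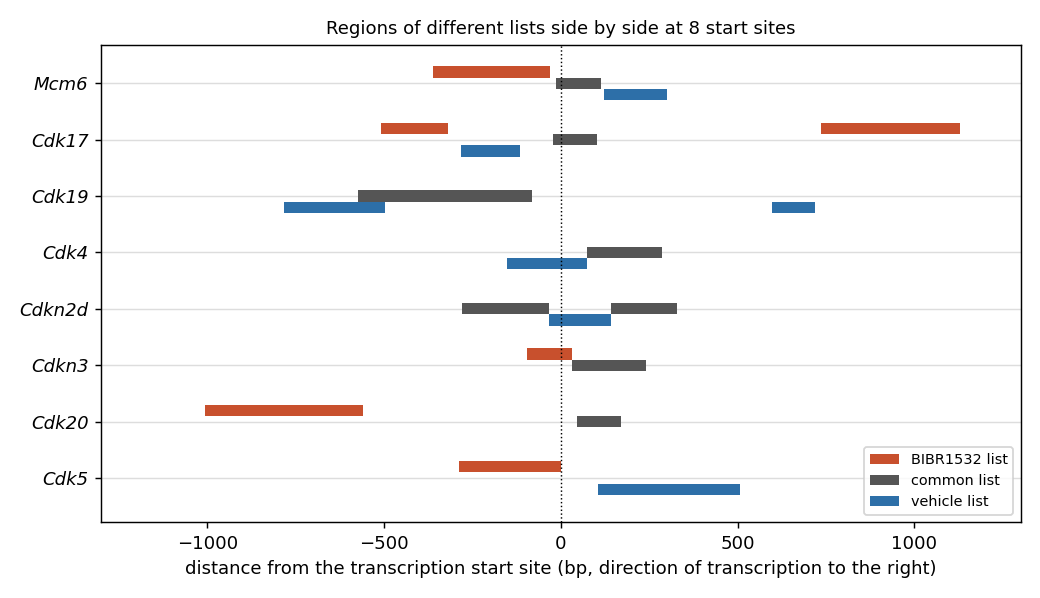
Regions of the 3 lists around the start sites of 8 members with regions of different lists within 1 kb, as distance from the start in bp. Mcm6 and Cdk17 carry all 3 lists, and in Cdk4, Cdkn2d and Cdkn3 the regions meet end to end.

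At several start sites the lists divided a continuous stretch. In Cdkn2d a vehicle region (chr9:21291069-21291242, score 2.64) filled the space between 2 common regions (chr9:21290880-21291068 and chr9:21291243-21291488), with 0 bases between neighbours on either side, and the other vehicle region named for this gene lay 8429 bp upstream (chr9:21299317-21299960). In Cdk4 the vehicle region ended at 127063609 and the common region began at 127063610. In Cdkn3, which encodes a phosphatase that acts on Cdks, a BIBR1532 region (chr14:46760445-46760573, score 2.79) met a common region in the same way. Of 17 neighbouring pairs from different lists within 1 kb, in 8 genes, 4 had no base between them, all at Cdkn2d, Cdk4 and Cdkn3. Such pairs were not counted over the whole lists, so they are not read as particular to these genes. In Cdk19 the vehicle promoter region (chr10:40348526-40348811, score 1.57) and the common one (chr10:40348735-40349225) shared 77 bp.

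At 2 start sites, those of Mcm6 and Cdk17, regions of all 3 lists lay within 1 kb. Across Mcm6 a BIBR1532 region of 333 bp lay upstream, a common region of 128 bp (chr1:128359593-128359720) over the start, and a vehicle region of 178 bp (chr1:128359407-128359584, score 1.55) after it, with gaps of 14 and 8 bases. At Cdk17 the order along the gene was a BIBR1532 region (chr10:93160367-93160558, score 2.52), a vehicle region (chr10:93160595-93160760, score 5.19), a common region of 125 bp (chr10:93160853-93160977) and a second BIBR1532 region (chr10:93161614-93162005, score 5.84). That second region lay 933 bp downstream of the Cdk17 start. It is of the promoter class by a different, non-coding transcript, and is counted among the 9 BIBR1532 promoter regions of members. Farther out, Cdk17 had a BIBR1532 region 15682 bp upstream (chr10:93144728-93145660), and Mcm6 had one 12248 bp upstream (chr1:128371809-128372098). For such genes a count in 1 list does not describe the promoter as a whole, and which pool had more signal over it cannot be read from the lists.

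A list of 46 further genes, such as origin recognition, GINS and mitotic kinase genes, stood in for the rest of the pathway. It also held cyclin and Cdk5 activator genes that act mainly outside the cycle, such as Ccnl1, Ccnl2, Ccnt1, Ccnt2, Cdk5r1 and Cdk5r2. The 46 genes were named by 23 common, 20 BIBR1532 and 25 vehicle regions. Of the condition-specific ones, 44.4% (interval 29.6 to 60.0) were BIBR1532 regions. A common promoter region was found at 14 of the 46 (30.4%, 17.7 to 45.8), beside the 14.2% of all protein-coding genes. They included Orc4 and Orc6 of the origin recognition complex, Gins1 and Gins2 of the helicase, and the mitotic kinase gene Aurka. Wee1 and Pkmyt1, which encode kinases that hold Cdk1 inactive, were also among them. So were Ccnl1, Ccnl2, Ccnt1 and Cdk5r1, the last of which encodes an activator of Cdk5. The 30.4% is therefore not a share of cell cycle genes alone. A vehicle promoter region was named for 10 of the 46 (21.7%, interval 10.9 to 36.4), against 7.37% of all protein-coding genes. A BIBR1532 promoter region was named for 2 (Pkmyt1 and Wee1; 4.35%, 0.531 to 14.8), against 6.89%. This contrast was singled out after it was seen, and no test of it was made.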

How the data were processed

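Peaks came from TERT CUT&Tag of 3 vehicle and 3 BIBR1532 samples, with groups taken from the titles. Tools listed in the submitters' processing notes, without roles, are MACS2 2.1.2, Picard, Bowtie2 and CASAVA 1.8, and the build is mm10. Per the file headers, regions were annotated with annotatePeaks.pl on mm10, which gives a class and the closest start site's gene, and the peak identifiers name a folder called bdgdiff. Scores are deposited as the authors computed them. How the pools were scaled is not stated in those sources, and scores were compared only within a list. Coordinates (deposited as other values) are on mm10 and were used as given.

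The BIBR1532 and vehicle lists were decoded from UTF-7, and unplaced contigs were left out. Members were matched by symbol, and all 72 were in the RefSeq table of GRCm38.p6 by gene ID. The members and gene lists were chosen with earlier results of these data known. All members could be named. Positions are given for the 3 highest-scoring regions of each condition-specific list, for every condition-specific promoter region, for the 6 members with the most condition-specific regions (ties by symbol), and for members with a common promoter region and a condition-specific region within 1 kb of a common region, and further positions and genes (Mcm7, and examples in each role) were chosen after their values were seen. Nearness was a gap of at most 1 kb. Motifs were exact matches on both strands. No promoter window was in the table for 15 members, among them Cdk5, Ccne2, Cdk17, Cdk19 and Mcm4. The distance and motif code was tested on simulated data. Software was matplotlib 3.10.9, scipy 1.17.1, numpy 2.4.6 and pandas 2.3.3 under Python 3.11.15. Alternatives are given in the closing section.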

Additional observations from a re-analysis of the deposited data

How the results depend on the processing

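The BIBR1532 share of the members' condition-specific regions (49.6%) lay between 44.4% and 51.6% in 11 of the 12 alternatives run: a score of at least 2 or 3, regions of 500 bp or wider, no regions at the most frequent score, merging within 1 kb, a distance of at most 10 kb or 100 kb, genes in place of regions, all contigs, without Ccnh and without Mcm5. Counted in base pairs it was 60.0%, with the 6074 bp region beside Mcm5 included. The count of 19 members with a common promoter region was 26 for centres within 1 or 5 kb (19.2% and 20.2% of protein-coding genes), 23 with the 5′ UTR class added (15.6%), and 6 for regions of at least 500 bp, where all protein-coding genes gave 3.01%. The promoter share of member common regions was 88.9% by centre within 1 kb and 75.0% of the 8 regions of at least 500 bp. That of member vehicle regions was 0.0% of the 7 regions of at least 500 bp. Of the 113 member regions, 9 lay within 200 bp and 14 within 5 kb of a common one, against 5.75% and 9.36% of all condition-specific regions. The BIBR1532 share of licensing genes was 60.0% to 75.0%, and that of INK4 genes 0.0%, in the alternatives run; those for these groups, the settings without Mcm5 and without distant regions, and the count over RefSeq windows were chosen after seeing the data. No paired analysis was possible because the libraries of each condition were pooled before deposit, and no replicate could be left out for the same reason. Depth is unknown, so a gene without a region is not shown to lack TERT signal.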
